A study of Mus musculus with 4 samples.

Results

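Border macrophages are the resident macrophages of the meninges, the choroid plexus and the spaces around vessels, at the edges of the brain, whereas microglia are the macrophages of the brain tissue itself. Both depend on the growth factor receptor Csf1r and share complement and Fc receptor genes, but border macrophages are known for scavenger receptors such as the mannose receptor *Mrc1* and the haemoglobin receptor *Cd163*. *F13a1* encodes the A subunit of coagulation factor XIII, which cross-links fibrin and is made by macrophages of many tissues. Some border macrophages carry MHC class II, which presents peptides to CD4+ T cells, and others carry the hyaluronan receptor *Lyve1*.

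The nuclei described here are those that the study's authors kept after quality control and annotated F13a1.Immune. There were 88 such nuclei among 39461 kept nuclei of 44303 barcodes, and all 88 lay in 1 cluster of the annotation. The 969 kept nuclei annotated Tmem119.Immune, the microglia of the same libraries, served for comparison. The tissue was a block of hindbrain holding the area postrema and the nucleus of the solitary tract, from adult mice of both sexes aged 12 to 20 weeks. Control mice are given as WT in the labels, and per the study's methods they had the same receptor alleles (hM4DGi fl/- and hM3DGq fl/-) without either recombinase (POMC-Dre-/- and AgRP-IRES-Cre-/-). AgRP-Gq;POMC-Gi mice were AgRP-IRES-Cre+/-, hM3DGq fl/-, POMC-Dre+/- and hM4DGi fl/-, so that the activating receptor hM3DGq was under Cre in AgRP neurons and the inhibiting receptor hM4DGi under Dre in POMC neurons. All mice, controls included, received the receptor ligand CNO (3 mg per kg, intraperitoneal), and hindbrains were collected 1 h later, so the comparison asks how hindbrain cells differ once AgRP neurons are driven and POMC neurons are silenced. There were 2 libraries and, per the study's methods, 2 mice per group. Tissue was pooled within a condition and which mouse entered which library was not stated, so p-values measure at most the spread between libraries. In border macrophages that spread is in effect shared over genes and is not each gene's own.

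The libraries gave 15 and 37 border macrophage nuclei in control replicates 1 and 2 and 17 and 19 in AgRP-Gq;POMC-Gi replicates 1 and 2. Their summed UMIs (unique molecular identifiers, each one counted molecule) were 32440, 67429, 28596 and 37057. The median nucleus held 1712 UMIs and 1195 genes, near the 1871 UMIs of the median microglial nucleus, and single nuclei ranged from 875 to 5142 UMIs. Levels below are UMIs summed over the nuclei of a class in 1 library, scaled to a total of 1000000 UMIs (CPM), as the mean ± SD of the 4 libraries. In the smallest library 1 UMI was worth 35.0 CPM. No barcode of a border macrophage occurred as a kept nucleus in another library, although 168 barcodes of kept nuclei occurred in more than 1 library. The libraries differed in the tissue they held. Choroid plexus nuclei numbered 2, 436, 6 and 329 in the order above, and the choroid plexus transcript *Ttr* stood at 0, 7104, 69.9 and 2402 CPM in border macrophages and at 11.5, 4589, 33.0 and 2914 CPM in microglia. *Xist*, transcribed in females, stood at 1264, 1127, 1014 and 0 CPM in border macrophages and at 1310, 731, 1571 and 15.3 CPM in microglia, whereas the Y-linked *Uty* stood at 61.7, 44.5, 35.0 and 269.9 CPM in border macrophages and *Ddx3y* at 0, 44.5, 35.0 and 108 CPM. AgRP-Gq;POMC-Gi replicate 2 was therefore the library nearly without *Xist*, and values without it are given for several of the genes named in the group comparison.

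The markers matched the label in most nuclei. *F13a1* had a UMI in 67 of 88 nuclei, *Mrc1* in 69, both in 59 and neither in 11. *F13a1* stood at 3391, 6273, 3602 and 2995 CPM in the 4 libraries, and no UMI of it was counted in 969 microglial nuclei, which allows a share of up to 0.310% of nuclei with a UMI. *Mrc1* stood at 2158, 3307, 2518 and 2051 CPM against a mean of 5.42 ± 5.31 CPM in microglia, where 7 of 969 nuclei had a UMI. The classes did not overlap in any library for either gene. Of the 7 nuclei with more UMIs of 14 microglia markers than of 18 border macrophage markers, 4 came from AgRP-Gq;POMC-Gi replicate 2. The 11 nuclei without *F13a1* and *Mrc1* had 5432 CPM of 18 pan-macrophage genes against 8134 CPM in the 59 nuclei with both, and they carried 3695 CPM of neuron markers and 3206 CPM of oligodendrocyte markers against 569 and 797 CPM. A few nuclei held most of these UMIs: 58 of the 83 neuron-marker UMIs lay in 1 nucleus, without which the level was 1333 CPM, and 60 of the 72 oligodendrocyte-marker UMIs lay in 3 nuclei, without which it was 663 CPM. Of these 3 nuclei, 2 had no UMI of any pan-macrophage gene. The part of other cells' RNA in these 11 nuclei was not tested.

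**Figure D1:**
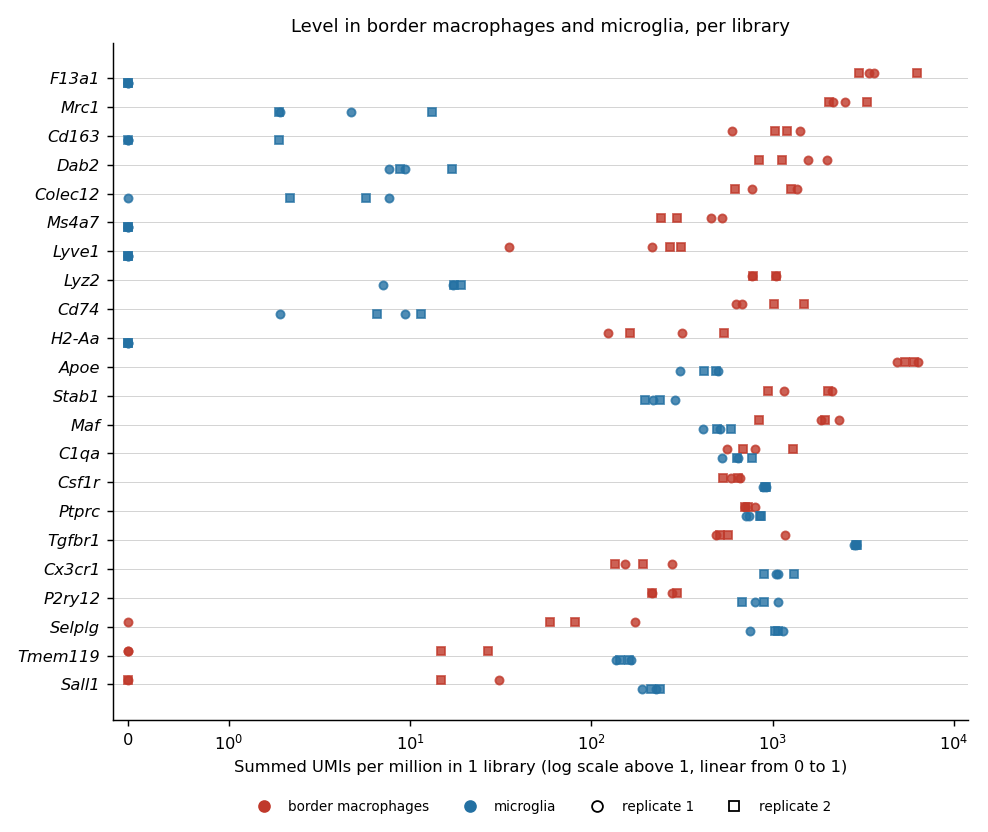
Level of 22 genes in border macrophages (red) and microglia (blue), 1 point per library, in CPM on an axis that is logarithmic above 1 and linear from 0 to 1. The 7 genes at the top and *Lyz2*, *Cd74* and *H2-Aa* lie to the right in all 4 border macrophage libraries, *C1qa* and *Ptprc* overlap between the classes, and *Tgfbr1* and the 5 genes at the bottom lie to the left.

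Because nuclei were put in these classes by their expression, the comparison with microglia is a description and carries no test. A gene was counted as higher or lower in border macrophages when the means differed at least 2-fold, the higher mean was at least 100 CPM and the direction was the same in all 4 libraries. Of 2822 genes over 100 CPM, 277 were higher (9.82%) and 328 were lower (11.6%). Means of log-normalized values gave fewer of both, as given in the section on processing below. The median of all 2822 log2 ratios was 0.03. A gene scarce in microglia could pass the 100 CPM limit only through border macrophages and was then bound to be higher, so the counts of list members below describe the genes over the limit and are not support for a difference of a list. All 18 border macrophage markers were detected, 11 exceeded 100 CPM and these 11 were higher, with a median log2 ratio of 7.71; these markers were chosen because they define the class. Of the 14 microglia markers, 12 exceeded 100 CPM and 11 were lower, with a median log2 ratio of -2.50 over the 12.

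Scavenger and lectin receptors bind modified proteins, lipids and sugars for uptake. Of 22 genes in the list, 21 were analysed, 12 exceeded 100 CPM and 10 were higher (9.82% of all genes over the limit). Some of them also define the class, and *Lyz2*, among the 10, is not a receptor gene. *Cd163* had 182 UMIs at 1060 ± 349 CPM and 1 UMI in microglia, a pooled ratio of 2119 with an exact counting interval of 376 to 84143. *Stab1*, a receptor for modified lipoproteins, stood at 1561 ± 598 against 237 ± 39.5 CPM, 6.60-fold higher. *Colec12*, a scavenger receptor with a collagen-like stem, stood at 1002 ± 361 against 3.89 ± 3.45 CPM, a 257-fold difference. The lysozyme gene *Lyz2* was 59.7-fold higher and the macrophage scavenger receptor *Msr1* 67.1-fold higher. *Lrp1*, the broad endocytic receptor, was the exception at 115 ± 19.9 against 294 ± 19.3 CPM, 2.56-fold lower. *Mertk*, the receptor kinase for apoptotic cells, was 1.74-fold lower and so within the 2-fold limit. *Lyve1* had 39 UMIs in 16 nuclei, none in microglia, and was uneven over libraries at 216, 311, 35.0 and 269.9 CPM.

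Of 16 genes of antigen presentation, 8 exceeded 100 CPM and 6 of these were higher (9.82% of all genes). The class II genes and *H2-K1* among them passed the limit only through border macrophages. *Cd74*, the invariant chain of MHC class II, stood at 678, 1023, 629 and 1484 CPM against 7.34 ± 4.13 CPM in microglia, a 130-fold difference. *H2-Eb1*, *H2-Ab1* and *H2-Aa*, the class II chains, stood at 381 ± 141, 272 ± 160 and 285 ± 189 CPM, and *H2-Aa* had no UMI in microglia. The class I genes *H2-K1* and *H2-D1* differed far less, by 2.76-fold and 2.94-fold. *Ciita*, the coactivator of class II transcription, had 10 UMIs in border macrophages and 2 in microglia and stayed below 100 CPM.

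Among 13 complement genes, the 3 subunits of C1q were near equal in both classes, with *C1qa* at 835 ± 323 against 645 ± 100 CPM, *C1qb* at 739 ± 188 against 651 ± 74.5 CPM and *C1qc* at 850 ± 133 against 702 ± 58.5 CPM. *Vsig4*, a complement receptor of tissue macrophages, had 25 UMIs against 1, and the anaphylatoxin receptors *C5ar1* and *C3ar1* were 3.68-fold and 2.57-fold higher. Of the 18 pan-macrophage genes, 16 exceeded 100 CPM and 12 of these were neither higher nor lower. *Adgre1* (F4/80) was 3.31-fold higher, and *Itgam*, *Ctss* and *Inpp5d* were lower, against 9.82% higher and 11.6% lower of all genes. *Ptprc* (CD45) stood at 732 ± 47.8 against 792 ± 76.1 CPM and *Csf1r* at 608 ± 59.8 against 906 ± 18.5 CPM.

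Among 18 lipid handling genes, 7 exceeded 100 CPM, 4 of these were higher (9.82% of all genes) and 1 was lower (11.6%). *Apoe*, the main lipid carrier of the brain, reached 5642 ± 646 CPM, the highest level of any gene in the lists, against 428 ± 88.2 CPM in microglia, a 13.2-fold difference; the cholesterol exporter *Abca1* and the phospholipid transfer protein *Pltp* were 2.91-fold and 7.84-fold higher. *Trem2*, a lipid receptor of microglia, was 2.19-fold lower. Of 18 iron and haem genes, 8 exceeded 100 CPM and 4 of these were higher (9.82% of all genes): *Cp*, *Blvrb*, *Ftl1* and *Cd163*. All 4 passed the limit only through border macrophages, and *Cd163* also defines the class. Of 21 lysosomal and endocytic genes, 18 exceeded 100 CPM. *Dab2*, an adaptor of clathrin coats, was 129-fold higher, the cathepsins *Ctsb* and *Ctsc* and the endosomal genes *Snx2* and *Eea1* were 2.37-fold to 2.78-fold higher, and *Ctss* was among the lower genes. *Ctsd*, *Ctsz*, *Psap* and *Lamp1* stayed within 2-fold.

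Among growth factor genes, *Igf1* had 31 UMIs against 1 in microglia (pooled ratio interval 60.1 to 14709). *Pdgfc* was 65.3-fold higher and *Gas6*, the ligand of Mertk and Axl, 6.16-fold higher, whereas *Tgfb1* was 4.48-fold lower. *Nrp1*, a receptor gene of the same list, was 4.96-fold higher. The TGF-beta receptor *Tgfbr1*, which microglia need for their identity, stood at 684 ± 326 against 2877 ± 46.2 CPM, 4.20-fold lower, and the pathway's feedback gene *Smad7* was 4.23-fold lower. The chemokine receptor *Cx3cr1* was 5.70-fold lower. Of 30 transcription factor genes, 19 exceeded 100 CPM: *Maf*, which directs the tissue macrophage programme, was 3.47-fold higher and *Nfatc2* 2.25-fold higher, the microglial *Sall1* was lower, and *Runx1*, *Etv6*, *Mef2c* and *Mitf* differed by less than 1.2-fold. *Zbtb16* was 10.2-fold higher. The ATP receptors *P2rx7* and *P2rx4* were 5.27-fold and 2.28-fold higher, at 1193 ± 729 and 324 ± 183 CPM, whereas the microglial ADP receptor *P2ry12* was 3.42-fold lower. Of 18 interferon-response genes, 5 exceeded 100 CPM and 3 of these, *Ifitm3*, *Bst2* and *Ifi204*, were higher (9.82% of all genes over the limit). Of 20 inflammatory genes only 2 exceeded 100 CPM, and neither was counted as higher (9.82% of all genes) or lower (11.6%), so the list says little. *Il1b*, *Il6* and *Il10* had no UMI in border macrophages.

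Markers of other immune cells were mostly scarce. Of 8 monocyte and 9 dendritic cell markers none reached 100 CPM, and their summed levels were 58.5 ± 32.3 and 96.9 ± 37.8 CPM. The 10 lymphoid markers summed to 683 ± 169 CPM against 147 ± 16.7 CPM in microglia, with a UMI in 46 of the 88 nuclei, and 6 of them, *Cd3e*, *Themis*, *Cd247*, *Nkg7*, *Pax5* and *Cd79a*, had no UMI. Most of the sum was *Bank1*, known from B cells, which stood at 617, 712, 769 and 432 CPM against 134 ± 15.8 CPM in microglia and 301 ± 271 CPM in the cells annotated Ms4a4b.Immune, the next highest of 14 types. *Csf3r*, the receptor of a neutrophil growth factor, was 3.53-fold lower than in microglia.

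Across all genes with at least 40 UMIs, the highest ratios over microglia belonged to *F13a1*, *Cd163*, *Ms4a4a*, *Mrc1*, *Ifi203*, *Aoah*, *Colec12*, *Mndal*, *Ms4a7*, *Iqgap2*, *F630028O10Rik* and *Gm30489*. *Ms4a4a* and *Ms4a7* encode tetraspan proteins of macrophages and had no UMI in microglia. *Aoah*, which removes acyl chains from bacterial lipopolysaccharide, stood at 824 ± 331 against 3.16 ± 1.34 CPM. *Ifi203* (173920407 to 173942672) and *Mndal* (173849126 to 173942491) overlap on the minus strand of chromosome 1. They belong to a family of near-identical interferon-inducible genes, so their separate counts are uncertain. *Gm30489* (chromosome 13, 36963239 to 36973329, plus strand, GRCm38) lies inside *F13a1* (36867178 to 37050244, minus strand), and whether its 57 UMIs were separated from *F13a1* by strand was not stated. The genes with the lowest ratios included *8030442B05Rik*, *Col27a1*, *St3gal5*, *Gm13269*, *Cacnb2*, *Slc24a3* and *Nav3*. *Nav3*, a microtubule-binding protein gene, stood at 81.5 ± 63.1 CPM against 2456 ± 101 CPM in microglia.

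Against all 13 other annotated cell types, the genes highest over the next type were *Ifi202b*, *Gm49144*, *Mrc1*, *Gm30489*, *F13a1*, *Cd163*, *Ms4a7*, *Ms4a4a*, *Aoah* and *Adam33*. *Mrc1* was 101-fold above the cells annotated Ms4a4b.Immune (24.7 ± 49.5 CPM), *F13a1* 92.1-fold above the same cells (44.2 ± 68.1 CPM, 6 UMIs) and *Cd163* 68.2-fold above astrocytes. *Ifi202b* stood at 268 ± 63.0 CPM and its next highest type was neurons at 0.0213 CPM. *Gm49144* overlaps the *F13a1* gene on the opposite strand, as *Gm30489* does, and *Ifi202b* belongs to the same family as *Ifi203*, so all 3 counts are uncertain. The metalloprotease gene *Adam33* stood at 242 ± 23.7 CPM, 13.2-fold above oligodendrocyte to OPC intermediates.

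*F13a1* was not limited to macrophages. In 12539 neurons 1458 UMIs were counted in 922 nuclei (7.35%), against 747 UMIs in the border macrophages, and only 3 of these neurons also had *Mrc1*. Neurons were deeper, with a median of 8704 UMIs. When each nucleus was thinned to 800 UMIs the expected share with *F13a1* was 1.04% in neurons, 70.5% in border macrophages and 0.0233% in oligodendrocytes, which are not known to use the gene and had a median of 2460 UMIs. The share in neurons was even over the libraries, at 6.68%, 7.79%, 7.33% and 7.51%. It was uneven over neuronal types: 104 of 134 neuronal clusters had a UMI, the median cluster stood at 5.72 CPM, and 7 clusters exceeded 50 CPM. The cluster that the authors named 100: Dlk1/F13a1 had a UMI in 35 of 98 nuclei, in all 4 libraries, at 112 CPM, or 8.01% of nuclei after thinning. None of those 98 nuclei had *Mrc1*.

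**Figure D2:**
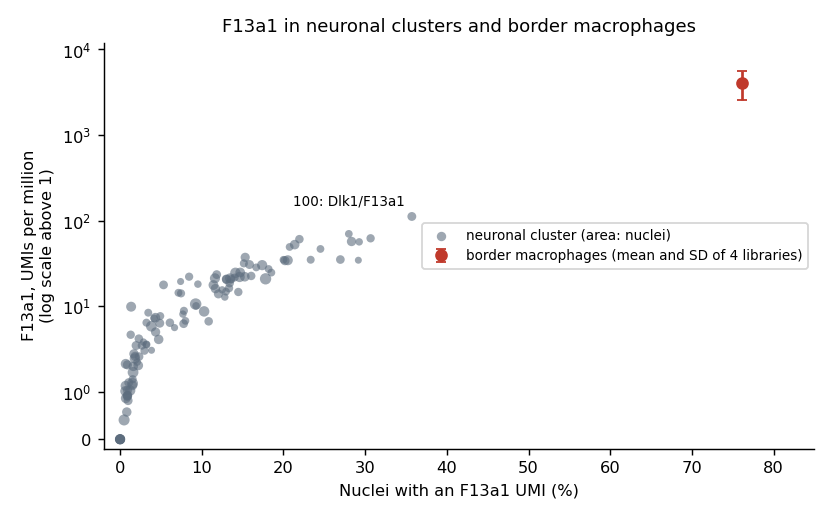
*F13a1* in the 134 neuronal clusters (grey, area by number of nuclei) and in border macrophages (red, mean and SD of 4 libraries), as the share of nuclei with a UMI against CPM on an axis that is logarithmic above 1. The highest neuronal cluster lies at 35.7% and 112 CPM, below the border macrophages at 76.1% and 4065 CPM.

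Border macrophages differed among themselves in MHC class II. At least 1 UMI of *H2-Aa*, *H2-Ab1*, *H2-Eb1* or *Cd74* was found in 45 nuclei and none in 43. Their medians were 1713 and 1710 UMIs and their sums 81465 and 84057 UMIs, so the nuclei without class II were somewhat deeper on average. Nuclei with class II numbered 6 of 15, 18 of 37, 8 of 17 and 13 of 19 in the 4 libraries. Of these 4 genes, 2 matched a promoter in the RefSeq table. The 150 bases before each start site are given to show letters that both promoters share. Capitals mark CTGATTGG, letters of the Y box that is known from class II promoters.

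H2-Aa (GRCm38.p6, chr17:34287824-34287973, minus strand): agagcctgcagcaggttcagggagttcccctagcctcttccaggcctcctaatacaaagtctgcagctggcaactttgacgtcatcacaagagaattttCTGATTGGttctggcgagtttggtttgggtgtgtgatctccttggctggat
H2-Eb1 (GRCm38.p6, chr17:34305717-34305866, plus strand): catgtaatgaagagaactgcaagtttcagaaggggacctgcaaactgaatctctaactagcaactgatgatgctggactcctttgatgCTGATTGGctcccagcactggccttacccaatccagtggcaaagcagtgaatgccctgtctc

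The letters began 51 bases before the start site of *H2-Aa* and 62 bases before that of *H2-Eb1*. Of 32851 promoters, 3.83% held them on either strand within 250 bases before the start. A match of letters is a description and not a binding site.

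Scavenger receptors differed between nuclei with and without class II, but not all in the same way in each library. *Colec12* was found in 15 of the 45 nuclei with class II and in 28 of the 43 without, at 565 against 1523 CPM, and was lower with class II in all 4 libraries. *Mrc1* stood at 1939 against 3367 CPM, lower in all 4 libraries, but near equal in AgRP-Gq;POMC-Gi replicate 2, at 2000 and 2171 CPM. It was found in 35 of the 45 nuclei with class II and in 34 of the 43 without. *F13a1* stood at 3290 against 5699 CPM but was lower in 3 libraries only; in AgRP-Gq;POMC-Gi replicate 2 it stood at 3730 with and 1267 CPM without class II. *Cd163* stood at 921 against 1273 CPM and was lower in 3 libraries, but higher with class II in control replicate 1 (1728 against 1246 CPM). *Stab1* stood at 1154 against 2130 CPM and was lower in 2 libraries only. *Lyz2* went the other way, at 1191 with and 690 CPM without class II, in all 4 libraries. *Apoe* stood at 6174 with and 5294 CPM without class II, but was near equal in control replicate 2, at 6014 and 5973 CPM. *Dab2* was near equal at 1277 and 1321 CPM. *Csf1r* had similar sums, 577 and 607 CPM, but was lower with class II in 3 libraries, from 173 against 815 CPM in control replicate 1 to 808 against 271 CPM, the opposite order, in AgRP-Gq;POMC-Gi replicate 2. These are sums over nuclei of 1 cluster and carry no test. The sum with class II in control replicate 1 and the sum without it in AgRP-Gq;POMC-Gi replicate 2 hold 6 nuclei each. In these sums 1 UMI weighs more than in a whole library, and *Csf1r* there rests on few UMIs. The nuclei without class II in AgRP-Gq;POMC-Gi replicate 2 include the one with 58 neuron-marker UMIs.

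*Lyve1* was found in 16 nuclei, 10 of them in control replicate 2, and all 16 also had *F13a1*, at 9464 CPM against 3052 CPM in the 72 nuclei without *Lyve1*. These 16 nuclei were deeper, with a median of 2294 against 1671 UMIs. Both *Lyve1* and class II were found in 7 nuclei and neither in 34. Of the 33 nuclei with 3 or more class II UMIs, 2 had *Lyve1*.

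**Figure D3:**
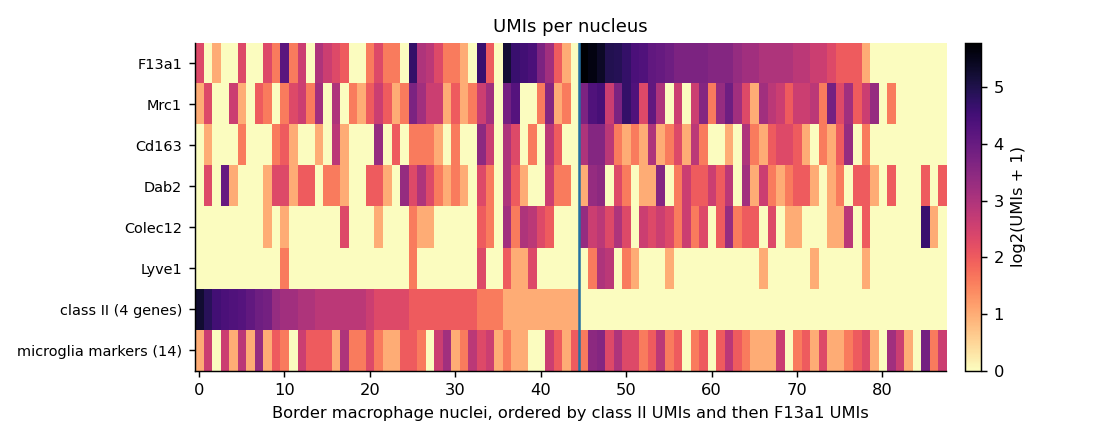
UMIs per nucleus on the scale log2(UMIs + 1) for 6 genes, the sum of 4 class II genes and the sum of 14 microglia markers in the 88 border macrophage nuclei. Nuclei left of the blue line are the 45 with class II, ordered by class II UMIs, and *Colec12* has a UMI in 15 of these and in 28 of the 43 on the right, which are ordered by *F13a1* UMIs.

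The share of border macrophages among kept nuclei was 0.154%, 0.368%, 0.175% and 0.191%, with exact Clopper-Pearson 95% intervals of 0.0864 to 0.254, 0.259 to 0.507, 0.102 to 0.280 and 0.115 to 0.298% that cover counting error only. Control replicate 2 was the high library, and its interval was clear of that of control replicate 1. The groups overlapped, at 0.261 ± 0.151% in control and 0.183 ± 0.0112% in AgRP-Gq;POMC-Gi (SD, n = 2 each; exact two-sided permutation test, p = 1, where the smallest p this design allows is 0.333). Without control replicate 2 the log2 ratio of the groups turned from -0.51 to 0.24. Fibroblast nuclei, which line the meninges and vessels, numbered 72, 391, 186 and 170 in the same libraries and were also highest in control replicate 2, and per 100 fibroblast nuclei there were 20.8, 9.46, 9.14 and 11.2 border macrophages. The part of the dissection in these shares was not tested. Fewer cells and fewer nuclei recovered per cell cannot be told apart.

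**Figure D4:**
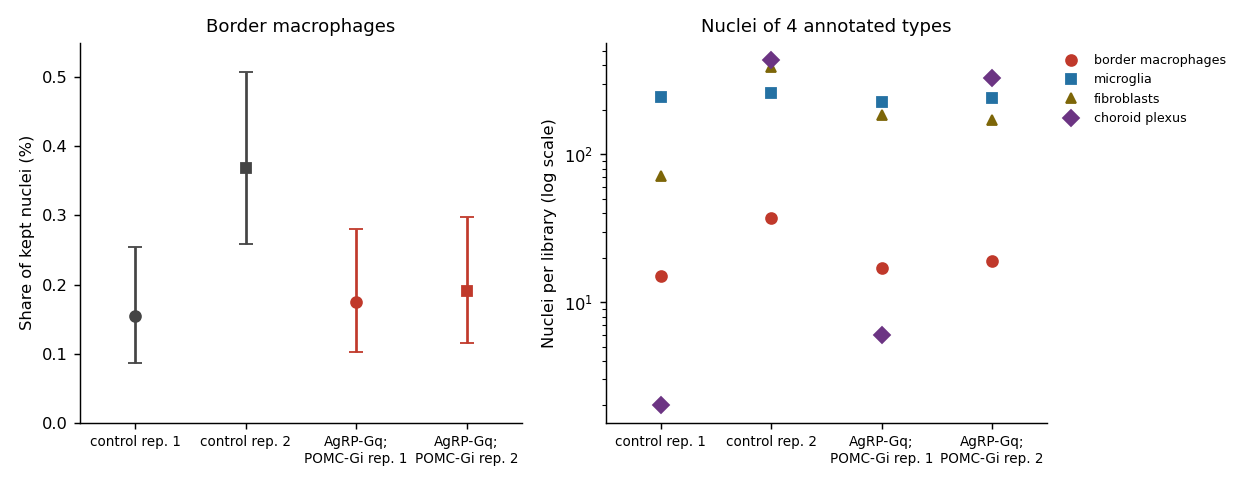
Left, share of border macrophages among kept nuclei per library with exact 95% intervals, in which control replicate 2 is highest at 0.368%. Right, nuclei of 4 annotated types per library on a log scale, in which microglia vary from 225 to 260 and choroid plexus nuclei from 2 to 436.

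Between the groups, 1 of 6497 genes tested passed in border macrophages (edgeR quasi-likelihood test on UMIs summed per library, Benjamini-Hochberg adjusted p under 0.05; 0.0154% of genes, and 0 lower). At an unadjusted p under 0.05 there were 100 higher and 168 lower genes, 4.12% in all. Counts were simulated for this comparison (6497 genes, 200 changed), with the same spread between libraries for every gene (biological coefficient of variation 0.298). In them the test recovered 4% of 2-fold, 12% of 4-fold, 46% of 8-fold and 62% of 16-fold changes. These rates need not hold for genes whose own spread was larger. The gene that passed was *Lsamp*, which encodes a neuronal adhesion protein, with 2, 30, 3 and 119 UMIs in the 4 libraries (log2 difference 2.50 ± 0.47 SE, adjusted p = 0.000505). The groups overlapped, and 114 of the 119 UMIs in AgRP-Gq;POMC-Gi replicate 2 lay in 2 nuclei. The first held 28 UMIs of astrocyte markers and the second 58 UMIs of neuron markers and no *F13a1* or *Mrc1*. Without both nuclei no gene passed, *Lsamp* included, whose log2 difference turned to -1.12. Without the whole library the 1 gene that passed was *Ttr* (log2 difference -5.75, adjusted p = 8.89e-12), where the choroid plexus content of the libraries differed as given above. *Adgrb3* and *Plcb1*, among the genes with the smallest p upward, had most of their UMIs in the same 2 nuclei (28 of 36 and 15 of 21) and did not pass. *Frmpd4*, which encodes a scaffold protein, had none there and stood at 0, 74.2, 455 and 297 CPM, without overlap of the groups (adjusted p = 0.245; log2 difference 2.83, and 3.11 without AgRP-Gq;POMC-Gi replicate 2). Downward, the 5 genes with the smallest p did not pass: *Ttr*, *Egfr*, *Ms4a6c*, *Zbtb16* and *Ptgds*. *Egfr*, a growth factor receptor gene, stood at 432, 311, 69.9 and 27.0 CPM (adjusted p = 0.301). *Ms4a6c*, of the same family as *Ms4a7*, stood at 678, 905, 140 and 297 CPM (adjusted p = 0.301). With AgRP-Gq;POMC-Gi replicate 2 left out, the log2 difference of *Egfr* went from -2.91 to -2.34 and that of *Ms4a6c* from -1.85 to -2.53, and neither passed. For *Ttr* and *Ptgds* the groups overlapped and control replicate 2 was highest. The SE of the *Ttr* log2 difference was 0.42 here and 1.32 in microglia. An SE or p-value in border macrophages therefore does not measure how that gene itself varied between libraries.

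No member of the marker and pathway lists passed between the groups. *F13a1* averaged 4832 ± 2038 CPM over the control libraries and 3299 ± 429 CPM over the others (log2 difference -0.60 ± 0.41) and *Mrc1* at 2733 ± 813 and 2284 ± 330 CPM (-0.30 ± 0.41), both with overlapping libraries. Without AgRP-Gq;POMC-Gi replicate 2 these differences were -0.47 and -0.16, and without control replicate 2 they turned to 0.05 and 0.17. *Stab1*, *Colec12* and *Cbr2*, of 15 border macrophage markers tested, had unadjusted p under 0.05 with lower values in AgRP-Gq;POMC-Gi. Of all 6497 genes tested, 168 had such values. *Stab1* stood at 2127, 2017, 1154 and 944 CPM (unadjusted p = 0.0206, adjusted p = 0.999) and *Colec12* at 1356, 1261, 769 and 621 CPM. The border macrophage markers with both AgRP-Gq;POMC-Gi libraries below both control libraries numbered 5 of 15, where 17.8% of all genes tested lay so, and 3 of 15 lay above, where 14.2% of all did. *H2-Aa* stood at 123, 163, 315 and 540 CPM, without overlap of the groups (adjusted p = 0.999), whereas *Cd74*, *H2-Ab1* and *H2-Eb1* overlapped between the groups. *Adgre1* stood at 247, 386, 734 and 648 CPM (adjusted p = 0.999). With AgRP-Gq;POMC-Gi replicate 2 left out, the log2 differences were -0.86 for *Stab1*, -0.78 for *Colec12*, -0.76 for *Cbr2*, 1.04 for *H2-Aa* and 1.11 for *Adgre1*, each in the direction it had with all libraries. Of the study's 10 immediate early genes, which mark recent activation of neurons, none exceeded 100 CPM in border macrophages, *Fos*, *Nr4a3*, *Gem* and *1700016P03Rik* had no UMI, and the 3 that could be tested did not pass.

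Genes induced by glucocorticoids were also compared between the groups. Of 11 such genes tested in border macrophages, 5 had both AgRP-Gq;POMC-Gi libraries below both control libraries (17.8% of all genes) and none above (14.2%), and the median log2 difference was -0.89 against -0.04 over all genes tested. The complement genes gave the same counts, 5 of 11 below and none above, with a median of -0.39. No member of either list passed. The lists were chosen with earlier results of these data known, so these counts and medians beside those of all genes are a description. *Fkbp5*, the immunophilin that restrains the glucocorticoid receptor, stood at 2281, 2061, 1259 and 297 CPM (log2 difference -1.52 ± 0.44, adjusted p = 0.313). *Zbtb16*, a zinc finger gene, stood at 740, 742, 280 and 135 CPM (-1.88 ± 0.54, adjusted p = 0.301). *Tsc22d3* (GILZ) stood at 308, 326, 245 and 54.0 CPM (adjusted p = 0.999). For all 3, AgRP-Gq;POMC-Gi replicate 2, the library nearly without *Xist*, was lowest. Without it the log2 differences were -0.80 for *Fkbp5*, -1.42 for *Zbtb16* and -0.41 for *Tsc22d3*. Without AgRP-Gq;POMC-Gi replicate 1 they were -2.87, -2.46 and -2.54, and *Fkbp5* passed (adjusted p = 4.19e-05). *Sult1a1* stood at 154, 222, 315 and 135 CPM and overlapped. Microglia came from the same libraries, so their values are not separate evidence. There *Fkbp5* stood at 1794, 1596, 1149 and 420 CPM, *Zbtb16* at 127, 40.0, 11.8 and 6.57 CPM, *Tsc22d3* at 209, 150, 73.1 and 59.1 CPM and *Sult1a1* at 138, 118, 51.9 and 41.6 CPM, and 7 of 10 genes lay below (18.5% of all genes) and none above (17%). In microglia the log2 difference of *Fkbp5* went from -1.08 to -0.50 with AgRP-Gq;POMC-Gi replicate 2 left out, and those of *Zbtb16*, *Tsc22d3* and *Sult1a1* were -2.73, -1.23 and -1.24 without it. Without control replicate 2, *Zbtb16*, *Tsc22d3* and *Fkbp5* passed there (adjusted p = 4.07e-09, 0.00103 and 0.02), with the lone control library assumed to vary like the others. No gene of 6588 passed in microglia (0%) with edgeR or with DESeq2, and 391 (5.94%) and 61 genes had an unadjusted p under 0.05. *Nr3c1*, the glucocorticoid receptor itself, stood at 123, 178, 315 and 513 CPM in border macrophages (log2 difference 1.37 ± 0.59, adjusted p = 0.999; 0.95 with AgRP-Gq;POMC-Gi replicate 2 left out).

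**Figure D5:**
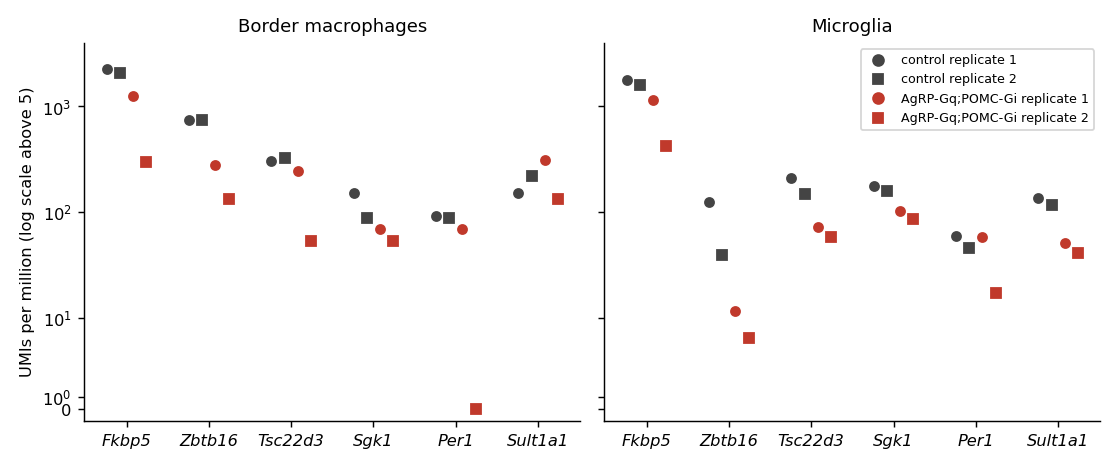
Level of 6 of the 11 glucocorticoid-induced genes tested in border macrophages, per library in border macrophages (left) and microglia (right), in CPM on an axis that is logarithmic above 5. The 6 include all 5 of the 11 genes that lay below in border macrophages, and the rest of the 11 are not shown. In border macrophages both AgRP-Gq;POMC-Gi libraries (red) lie below both control libraries (grey) for *Fkbp5*, *Zbtb16*, *Tsc22d3*, *Sgk1* and *Per1*, and *Sult1a1* overlaps.

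Whether the group difference itself differed between border macrophages and microglia was tested over 5465 genes with the library as a block. *Lsamp* and *Ntm* passed (0.0366% of genes; adjusted p = 0.00809 and 0.00934), and 199 genes (3.64%) had an unadjusted p under 0.05. *Ntm*, another neuronal adhesion gene, had 39 UMIs in 9 border macrophage nuclei, 20 of them in the 2 nuclei described for *Lsamp*, and without those nuclei no gene passed. The log2 group difference of *Ntm* was 1.43 in border macrophages and -1.93 in microglia. In microglia *Ntm* stood at 94.0, 162, 49.5 and 17.5 CPM and did not pass.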

How the data were processed

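Nuclei of 4 hindbrain libraries were sorted and sequenced by 10x Genomics 3′ single-nucleus RNA-seq. The authors made UMI counts per gene and nucleus with Cell Ranger 7.0.0 on GRCm38 (mm10) and used Seurat 4.3.0, removed doublets and nuclei under 800 UMIs, under 500 genes or over 10% mitochondrial UMIs, and deposited the raw counts with a table of each barcode's quality call, cell type and cluster. No further filter or doublet caller was applied here. The deposited counts hold 32285 genes, and per-nucleus UMI and gene totals equalled those of the table for all barcodes.

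Counts were summed per library and class and given as CPM. Group differences were tested with edgeR 4.0.16 (glmQLFit, glmQLFTest, TMM factors, genes detected in 5% or more of a class's nuclei, Benjamini-Hochberg threshold 0.05). Standard errors were derived from the F statistic. The authors used a mixed model over nuclei, which was not run. Genes absent from a class got a bound from 3 UMIs. Alternatives were DESeq2 1.42.0, library sizes without TMM, no gene filter, filterByExpr, a replicate block, each library left out, thinning to 800 UMIs, means of log-normalized values and other denominators. The tests were tested on simulated data. Gene positions are from GENCODE M21, and 2 of 387 list genes were not analysed here. Named genes were F13a1, Mrc1, up to 6 members per list with the most UMIs or passing a test, the 12 highest and 8 lowest ratios to microglia at 40 UMIs or more, up to 10 genes over the next cell type, genes passing a group test or the 5 smallest p per direction, and sex-linked genes; some list members past these were named after their values were seen. A few named genes are not reported here. The members and lists were chosen with earlier results of these data known.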

Additional observations from a re-analysis of the deposited data

Results flagged for a closer look

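The group difference of *Lsamp* was larger in border macrophages than in microglia by 2.56 on the log2 scale, and that of *Ntm* by 3.58, both by the test of the difference between the cell types. The *Lsamp* value rests in large part on 2 nuclei of AgRP-Gq;POMC-Gi replicate 2, and without them neither gene passed. The *Ntm* value rests on microglia as well, with log2 group differences of 1.43 in border macrophages and -1.93 in microglia.

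Some barcodes that the authors left out held *F13a1* or *Mrc1*. Of 3937 left-out barcodes that meet the stated limits on UMIs, genes and mitochondrial share, 138 had *F13a1*, 18 had *Mrc1* and 7 had both. Among kept nuclei, 59 of the 88 border macrophages and 3 of 39373 nuclei of other types had both. The left-out barcodes were not divided by type here, so their share is not set against either. *F13a1* alone does not mark a macrophage, since 7.35% of kept neurons had it. The 7 barcodes lay 1, 4, 2 and 0 in the libraries in the order used above. Their median was 3906 UMIs, against 1712 in the kept border macrophages, and they carried 5739 CPM of oligodendrocyte markers against 1124 CPM, with 5 of the 7 holding at least 5 UMIs of these. Whether they are doublets was not tested.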

How the results depend on the processing

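The numbers of called genes in border macrophages were small and unstable. Against 1 gene, none passed with DESeq2 (27 at an unadjusted p under 0.05), with filterByExpr (0 of 631), or without the 2 nuclei rich in *Lsamp* (0, chosen after seeing the data), and 3 passed without a gene filter. With the replicate block 0 passed; same-numbered libraries deviated together at r = 0.058 in border macrophages and 0.072 in microglia, so the numbers were not taken to pair libraries. Leaving out each library gave 0 to 12 called genes in border macrophages, with 12 without AgRP-Gq;POMC-Gi replicate 1, and 0 to 9 in microglia, with 6 without control replicate 1 and 9 without control replicate 2; in each case the lone library was assumed to vary like the others. For the difference between the cell types, 2 genes became 0 with DESeq2 (49 at an unadjusted p under 0.05), 5 with filterByExpr, 0 without the 2 nuclei, and 0 to 11 over the libraries left out. The log2 difference of *Lsamp* ranged from -1.50 to 4.78 over the libraries left out, that of *Adgrb3* from -4.40 to 6.84, that of *Ttr* from -5.75 to 8.40 and the *Lsamp* difference between the cell types from -2.60 to 5.40. The lowest values of *Lsamp* and *Adgrb3* came with AgRP-Gq;POMC-Gi replicate 2 left out, and the highest of *Ttr* with control replicate 2 left out. The differences of *F13a1* and *Mrc1* ranged from -1.02 to 0.05 and from -0.63 to 0.17, both highest without control replicate 2. Without the 2 nuclei the values reversed to -1.12 for *Lsamp*, -0.76 for *Adgrb3* and -1.20 for *Lsamp* between the cell types. Against microglia, means of log-normalized values gave 127 higher genes in place of 277, 234 lower genes in place of 328, 7 of the border macrophage markers in place of 11 and 7 of the microglia markers in place of 11; the cause was not tested. Thinning gave 293 and 376 genes, leaving out a library gave 305 to 357 and 353 to 389 (10 to 13 and 10 to 11 of the marker lists), and leaving out 7 nuclei with more microglia-marker UMIs (chosen after seeing the data) gave 281 and 346. No nucleus exceeded 2% oligodendrocyte-marker UMIs, so that alternative changed nothing. The log2 share ratio ranged from -1.01 to 0.24 over the libraries left out. With 15 to 37 nuclei per library, 1 UMI was worth up to 35.0 CPM, which limits what low genes can show.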

Other observations

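The lower *Zbtb16* of AgRP-Gq;POMC-Gi libraries was not particular to the macrophages. Both AgRP-Gq;POMC-Gi libraries lay below both control libraries in 14 of 14 annotated cell types for *Zbtb16* and in 13 of 14 for *Tsc22d3*. How many of all genes lay so in as many types was not counted, and in border macrophages alone 17.8% of genes tested lay below. The 14 types include border macrophages and microglia, in which these genes had been named. They also include choroid plexus, with 2 and 6 nuclei in the replicate 1 libraries of control and AgRP-Gq;POMC-Gi. The types share their libraries, so this is a description of 4 libraries.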
